A study of Mus musculus with 383 samples.

Results

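The cells described here are YFP-positive, Epcam-negative single cells from mouse skin squamous cell carcinomas. Of 383 wells in the series, 310 were labelled as single Epcam-negative cells. All but 47 of these (84.8%) were kept. A kept well had 100000 gene reads or more and 2000 detected genes or more, while its mitochondrial share was no higher than 20% and its spike-in share no higher than 50%. The tumours arose in mice that carried Lgr5CreER, p53 as p53fl/fl and the reporter Rosa26-YFP+/+. In this model a Cre recombinase driven by the Lgr5 promoter, which is active in hair follicle stem cells, removes floxed p53 and turns on YFP, a yellow fluorescent protein that marks the recombined lineage. Every cell of the series has the same genotype, so no control genotype was analysed here. After collagenase digestion, living cells that excluded DAPI and passed a doublet gate were sorted by YFP and by Epcam, an adhesion protein on the surface of epithelial cells, and were sequenced by Smart-seq2, which amplifies full-length cDNA without molecular identifiers. The other kept cells were 62 YFP-positive, Epcam-positive cells of 70 labelled, and they serve below as a point of reference.

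Carcinoma cells can lose epithelial traits such as keratins and desmosomes and gain mesenchymal ones such as vimentin and fibrillar collagens, a process called epithelial-to-mesenchymal transition (EMT). In skin carcinomas of this kind, tumour cells that have lost Epcam are known for a spindle shape and for a matrix-producing, fibroblast-like expression program. EMT is held to pass through intermediate states, so that cells without Epcam can still differ in how much of the epithelial program they express.

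The labels name no animal, tumour or culture. The kept cells were therefore handled together as 1 sample, without using cells as replicates and without a test. Kept cells had 104330 to 900492 gene reads (median 414731), 2480 to 10200 genes with a read (median 6584) and a mitochondrial share of 0.0372% to 18.6% (median 4.36%). The well just outside the read limit had 97302 gene reads, and the cell just inside it 104330. Epcam-negative cells sat in plate rows D to P and Epcam-positive cells in rows A to C, so that population and plate row cannot be told apart. A well set up with 0 cells in the Epcam-negative part of the plate gave 4018 gene reads. Levels are given in CPM, the reads of a gene scaled to a total of 1000000 gene reads. The level of the whole set is from reads summed over its cells, with an exact 95% Poisson interval that covers counting error only.

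All 6 mesenchymal markers used to name these cells were detected in most of them. Vim, the intermediate filament protein vimentin (chromosome 2, 13573927 to 13582826, build GRCm38), stood at 5809 CPM (95% interval 5794 to 5823). Single cells had 10.3 to 18984 CPM with a median of 5470.4 for Vim, against 592 CPM in Epcam-positive cells. Sparc, a matrix glycoprotein that binds collagen, was at 8868 CPM and ranged from 51.9 to 41099.6 CPM with a median of 6359. Fn1, which encodes fibronectin, was at 3829 CPM, and its cells had 1.92 to 20259.5 CPM with a median of 2664. No kept cell was at 0 for Vim, Sparc, Fn1 or Col3a1. The fibrillar collagen genes Col3a1 and Col1a1 reached 4756 and 2593 CPM, with 3.35 to 50428 CPM with a median of 2329 for Col3a1 and 0 to 18239 CPM with a median of 1313 for Col1a1. Pdgfrb, the receptor for platelet-derived growth factor B, was the lowest of the markers. It ranged from 0 to 1879 CPM with a median of 66.4 and had no read in 19.4% of cells. The well of 50 Epcam-negative cells, with 154897 gene reads, gave 6649.6 CPM of Vim, 7779 of Sparc, 6372 of Fn1 and 6029.8 of Col3a1. Some other genes lay further from their single-cell level there. S100a6 was at 29271 CPM in this well against 5928 over the kept cells, and Igfbp7 at 794 against 2053.

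Epcam itself was at 22.7 CPM (95% interval 21.8 to 23.6), against 1069 CPM in the Epcam-positive cells. It had no read in 77.9% of cells, and 35.7% of its reads came from a single cell with 2389.7 CPM. To compare presence between cells, the reads of each were drawn down at random to a total of 100000, and a gene counted as present from 5 drawn reads, or 50 CPM. By this measure Epcam was present in 12 cells (4.56%), 8 of them in plate columns 1 to 12. The basal keratin gene Krt14, a marker of the epithelium from which these tumours arise, ranged from 0 to 56264 CPM with a median of 32 and was present in 49% of cells. The gene-level reads of Trp53, 18.4 CPM with 0 to 218.7 CPM per cell, do not separate the floxed exons from the rest and therefore check nothing about its deletion.

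**Figure D1:**
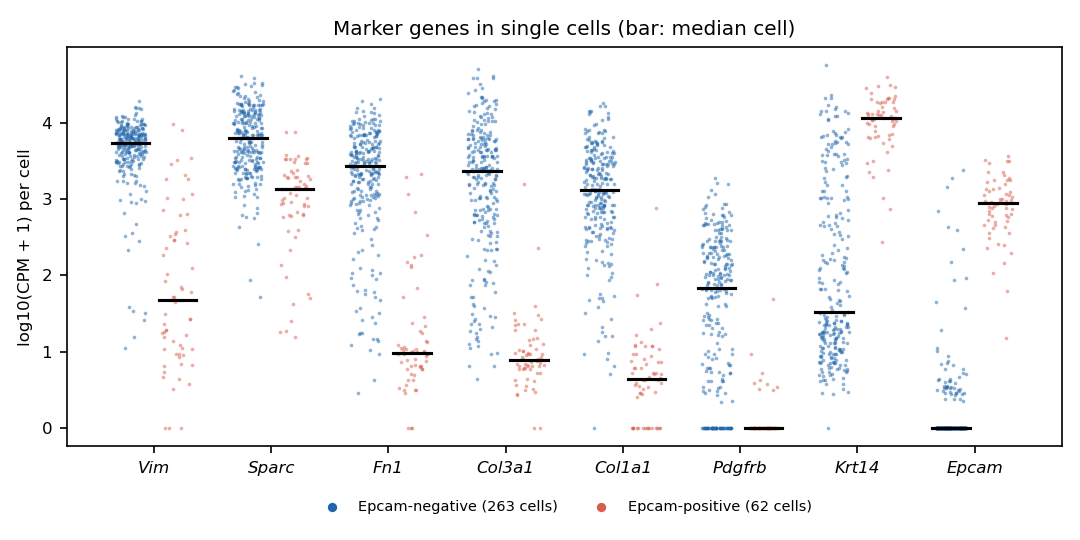
Levels of the 6 mesenchymal markers, Krt14 and Epcam in single cells, as log10(CPM + 1). Each point is a kept cell, Epcam-negative or Epcam-positive (n = 62), and each bar the median cell. Vim, Sparc, Fn1, Col3a1 and Col1a1 lie high in nearly all Epcam-negative cells, while Pdgfrb and Krt14 spread from 0 upward.

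Markers of other cells that a tumour digest can hold were low. None of 10 immune, 7 endothelial, 5 melanocyte, 4 Schwann cell, 5 erythroid and 6 adipocyte or muscle genes reached a mean of 20 CPM. The immune genes reached at most 6.18 CPM, with Adgre1 at 0, and Tek, Emcn and Sox10 were also at 0. Dermal fibroblast genes were different: 5 of 8 reached the floor, and their summed level ranged from 45.1 to 23146 CPM per cell with a median of 1588, against a median of 683 in Epcam-positive cells. These include Gsn, Pdgfra, Dpt and Col14a1, genes that matrix-producing cells of several kinds express. The part of fibroblasts outside the tumour lineage in the matrix values below was not tested. Rgs5, a pericyte gene, was present in 1.14% of cells, and 46.8% of its reads lay in 1 cell. Xist, the RNA of the inactive X chromosome, was read in all but 9 cells, while the Y-linked genes Uty and Eif2s3y had no read.

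Ranked per kilobase of exon, the most abundant transcripts belonged to calcium-binding S100 proteins, the cytoskeleton, secreted matrix factors and a chemokine. S100a6 led with 4336 CPM per kb. It was followed by Mmp3 at 3692, Actb at 3657, the galectin gene Lgals1 at 3514, and S100a4, also known as fibroblast-specific protein, at 3153 CPM per kb. Ctla2a, which encodes a cathepsin inhibitor, followed at 2993, and the neutrophil-attracting chemokine gene Cxcl1 at 2679 CPM per kb. B2m, Sparc, Cst3, S100a10, Fth1, Tmsb4x, Ifitm3 and Igfbp7 completed the 15 highest, from 2467 down to 1698 CPM per kb. The 15 genes with most reads together held 13.6% of all gene reads.

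These abundant genes were spread over cells in very different ways. S100a6 ranged from 288.5 to 33557 CPM with a median of 5091, and Actb from 560.3 to 38082 CPM with a median of 7704. Mmp3 had nearly the same level per kb as Actb but ranged from 0 to 307517 CPM with a median of 69.4, and a single cell supplied 28.9% of its reads. Ctla2a lay in between, with 0 to 108892 CPM with a median of 785. A high level over the whole set thus stood for most cells in the case of S100a6 and Actb, and for a minority in the case of Mmp3. S100a4 reached 1841 CPM, against 162.4 CPM in Epcam-positive cells, and ranged from 5.61 to 13554 CPM with a median of 1181.

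Variation between cells was measured as the squared coefficient of variation of CPM. Because this falls with the level of a gene, each gene was set against a running median over the genes nearest to it in mean level, and the log2 difference is called excess variation here. A gene was called more variable at an excess of 1 or above and less variable at −1 or below. Of 6778 genes with a mean of at least 20 CPM, 723 (10.7%) were more variable and 394 (5.81%) less variable. Spike-in RNAs, which are added in equal amounts to every well, show part of the technical spread. The 6 most abundant had coefficients of variation of 0.210 to 0.370, all below the 0.862 to 0.896 of genes at like levels. Over kept cells, gene reads per spike-in read ranged from 5.37 to 1079. Coefficients this low cannot hold that spread between wells, so they are not on the scale of gene CPM. At lower levels 8 of 15 spike-ins were below the genes, so the spread of genes in that range overlaps the spread that equal input RNA gave. Of the 723 more variable genes, 17.7% were present in 50% of cells or more, 71.8% in 10 to 50% and 10.5% in fewer than 10%. Leaving out the cell with most reads of each gene kept 500 of them, and scaling by spike-in reads kept 381.

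**Figure D2:**
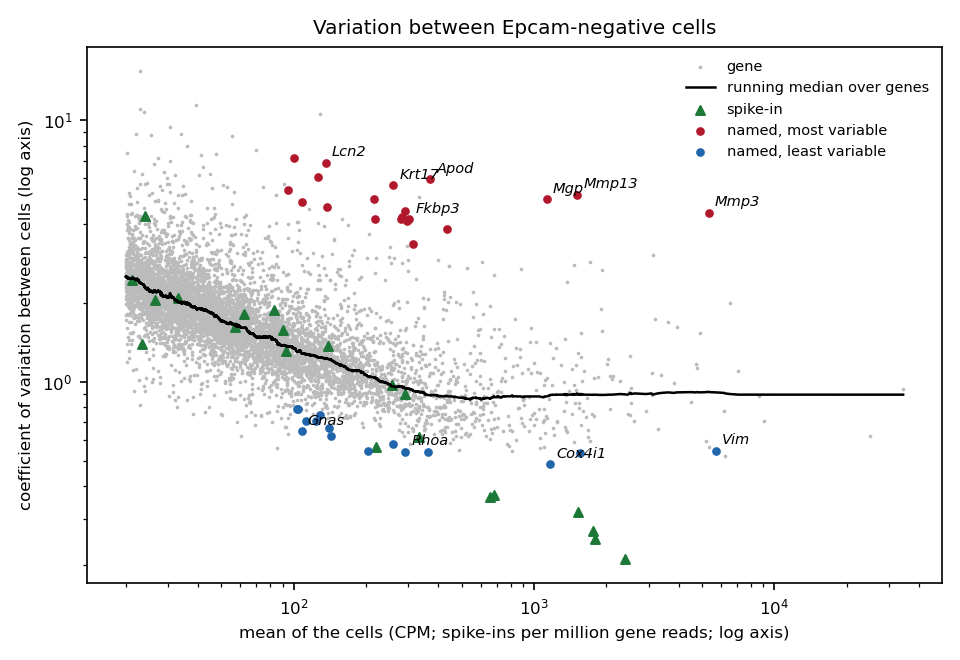
Coefficient of variation between Epcam-negative cells against the mean level, both on log axes. Grey points are 6778 genes, the line is their running median, triangles are spike-ins, and coloured points are the named most and least variable genes. Apod, Mmp13 and Mmp3 lie far above the line, Vim, Cox4i1 and Gnas below it, and the most abundant spike-ins below all of these genes. The coefficients of these spike-ins are too low to hold the spread between wells in gene reads per spike-in read.

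The most variable genes were of several kinds. Apod, a secreted lipid-binding protein, had the highest excess at 5.47. It ranged from 0 to 33077 CPM with a median of 3.28, with no read in 35.7% of cells and 40.2% of its reads in 1 cell. Without that cell its excess was 3.81. Mgp, an inhibitor of matrix calcification, ranged from 0 to 85033 CPM with a median of 16.2, an excess of 5.01. Eln, which encodes elastin, had an excess of 4.25 and ranged from 0 to 17004 CPM with a median of 6.99. Apoe, an apolipoprotein, Fabp5, a fatty acid carrier, and Serping1, an inhibitor of complement, had excesses of 4.25, 4.02 and 3.96.

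Of 13 proteases and inhibitors that remodel matrix, 6 were more variable, against 10.7% of all measured genes, with a median excess of 0.95. The metalloprotease genes Mmp13 and Mmp10, with excesses of 5.06 and 4.50, ranged from 0 to 78979 CPM with a median of 8.98 and from 0 to 12867 CPM with a median of 1.74 respectively. Mmp3 followed at 4.55. The median cell thus had little of these 3 secreted proteases, while the highest cells had far more: 1 cell had 307517 CPM of Mmp3. The membrane-bound protease gene Mmp14 and the inhibitor gene Timp2 showed the opposite picture. Mmp14 ranged from 0 to 3177 CPM with a median of 525, with an excess of -0.12, and Timp2 from 4.13 to 13894 CPM with a median of 1364, with an excess of -0.09.

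Among 15 measured epithelial genes, 14 were more variable and none less variable, against 10.7% and 5.81% of all measured genes, with a median excess of 2.42. Krt17 and Krt6a, keratins of wounded and hyperproliferative skin, had excesses of 5.12 and 4.31. Krt17 ranged from 0 to 19826 CPM with a median of 3.36 and was present in 14.8% of cells. Krt5, which pairs with Krt14 in filaments, ranged from 0 to 10586 CPM with a median of 7.71 and was present in 25.9%. Dmkn, a secreted keratinocyte protein, had an excess of 4.84. The keratins were thus high in a minority of the Epcam-negative cells and at or near 0 in the median cell. In Epcam-positive cells Krt17 was at 5391 CPM and Krt5 at 4868 CPM.

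Cytokine genes were similar, with 10 of 13 measured members more variable, against the same 10.7% of all genes, and a median excess of 3.07. Cxcl10, an interferon-induced chemokine, ranged from 0 to 7510.0 CPM with a median of 0 with an excess of 3.83. Without its highest cell the excess of Cxcl10 was 2.51. Cxcl5 and Il6, a neutrophil-attracting chemokine and an inflammatory cytokine, had excesses of 3.70 and 3.67. Cxcl1 and Csf1 were the steadier members at 0.60 and 0.53, and Cxcl1 ranged from 2.39 to 28959 CPM with a median of 3004. Lcn2, a secreted iron-scavenging protein, was at 0 in 68.4% of cells and reached 14003 CPM in 1 cell that held 43.1% of its reads.

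Matrix genes had a median excess of 1.07, below that of the epithelial and cytokine lists and near that of the proteases. Of 24, 12 were more variable and none less variable, against 10.7% and 5.81% of all measured genes. Lum, a small proteoglycan, had the highest excess of them at 4.12, followed by Col6a3 at 2.86 and Mfap5, a microfibril protein, at 2.40. The proteoglycan gene Bgn and Sparc were near the running median, at -0.03 and -0.05. Of the 6 markers, Col3a1 (1.50) and Pdgfrb (1.05) were more variable, Col1a1 (0.94) and Fn1 (0.25) lay between the limits, and Vim (-1.48) was less variable. Among 13 genes of contractile cells, 8 were measured and 4 of these were more variable, against 10.7% of all measured genes. Acta2, smooth muscle actin, ranged from 0 to 31918 CPM with a median of 413, with an excess of 2.19. Cald1, which encodes an actin-binding protein, had an excess of -0.89.

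Of 7 transcription factors of EMT, 5 reached the level floor, and 0 of these were more variable, a count near the 10.7% of all measured genes. Prrx1 was the most abundant in CPM at 371 and ranged from 0 to 2527 CPM with a median of 230.9. Zeb2, Snai1, Zeb1 and Twist1 were at 72, 58.5, 48.6 and 32.8 CPM, with excesses of 0.17, -0.06, -0.33 and -1.05. All 5 were at least 2-fold higher than in Epcam-positive cells, as were 16.3% of all measured genes. The floor was set in Epcam-negative cells, so here and below it favours genes that are higher in them. The other members, Snai2 and Twist2, were below the floor at 16.2 and 8.55 CPM, against 98.9 and 1.77 CPM in Epcam-positive cells.

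Signalling lists were mixed. Of 12 measured TGF-beta genes, 8 were more variable, against 10.7% of all measured genes, led by Inhba, an activin subunit, at 3.12 and Ccn2, a matricellular target of TGF-beta and Yap1, at 2.66. Smad7, the feedback inhibitor, had -0.45. Of 8 measured Wnt and BMP genes, 4 were more variable, against the same share of all genes, namely the secreted Wnt inhibitors Sfrp2 (2.59), Sfrp1 (2.37) and Dkk2 (1.38) and the BMP antagonist Grem1 (2.16). Vcam1, an adhesion molecule, had an excess of 3.07 and ranged from 0 to 7312 CPM with a median of 6.73, while the integrin gene Itgav had -0.34 and ranged from 0 to 1061 CPM with a median of 118.5. Itgb3, its partner, was below the level floor at 12 CPM and present in 9.51% of cells.

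Stress, cell cycle and housekeeping lists differed in how close they lay to the 10.7% of all measured genes. Early response genes had 3 of 17 more variable (Atf3, Egr2 and Nr4a1) and 1 less variable (Jund, -1.97). Fos ranged from 5.77 to 17920.1 CPM with a median of 2211 and Egr1 from 2.17 to 7060.1 CPM with a median of 1061. Of 10 heat shock genes, Hspa1b (2.03) was more variable and Hsp90ab1 and Hspe1 less variable. Hspa1b had -0.27 once its highest cell was left out, so its call rested on 1 cell. Of 16 hypoxia and glycolysis genes, the glucose transporter gene Slc2a1 (2.99), Adm (2.95), Egln3 (2.57) and Ndrg1 (2.52) were more variable. The glycolytic enzyme genes Eno1 and Pgk1 were at -0.82 and -1.51. Cell cycle genes differed by phase: all 10 measured G2 and M phase genes were more variable (median excess 1.70), and 3 of 11 S phase genes. Counts for the other lists were 3 of 7 interferon genes, 1 of 5 MHC class I genes, 1 of 7 genes of the ATF4 stress response, 3 of 8 sterol synthesis genes and 2 of 6 p53 targets. With 10.7% of all measured genes more variable, the single members of the MHC and ATF4 lists are near the background.

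The 15 least variable abundant genes had varied roles in the cell. Gnas, a G protein subunit, had the lowest excess at -1.97 and ranged from 5.19 to 441 CPM with a median of 96.8. Cox4i1, a subunit of cytochrome c oxidase, ranged from 306.9 to 4704 CPM with a median of 1062, an excess of -1.75. Chchd2 (-1.89), Uqcr10 (-1.70), Ndufa2 (-1.47) and Smdt1 (-1.45) also encode mitochondrial proteins. Btf3 (-1.92) and Sec61b (-1.64) act at the ribosome and its membrane channel, and Arf1 (-1.45) in vesicle traffic. The small GTPase gene Rhoa, which controls the actin cytoskeleton, ranged from 34 to 894 CPM with a median of 254.6. Its excess was -1.60, but changed sign with no filter on cells. Tpt1 (-1.74), Selenof (-1.50), the elongin gene Elob (-1.47) and the proteasome gene Psma5 (-1.47) were the others. The excess of Tpt1 changed sign with another scaling of the reads. Vim was the one mesenchymal marker in this list: at 5809 CPM, its middle 50% of cells lay between 3616 and 7267 CPM. In Epcam-positive cells the excess of Vim was 3.8. Scaling by spike-in reads moved Vim to −0.69, so that its call as less variable depends on scaling by gene reads.

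To find genes that vary together, Spearman's rho was computed over the kept cells for the 500 genes of highest excess present in at least 10% of cells. The points share 1 plate, 1 preparation and a wide range of depth, so the correlations are descriptions. The median over 124750 pairs was 0.05, and 2.94% of pairs reached a rho of 0.3. Average linkage, with the tree divided at 0.7, gave 16 groups of 5 or more genes, which held 37.6% of the 500. The median rho within a group was 0.36 to 0.42. Since the groups were made from these correlations, those values describe them and support nothing. When groups were rebuilt from the 140 cells in plate columns 1 to 12 alone, 17 groups arose. In the other 46.8% of cells, from columns 13 to 24, which had no part in that choice, their median rho was 0.0864 to 0.406, all above the 0.0300 of all pairs, and 13 of the 17 reached 0.2.

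**Figure D3:**
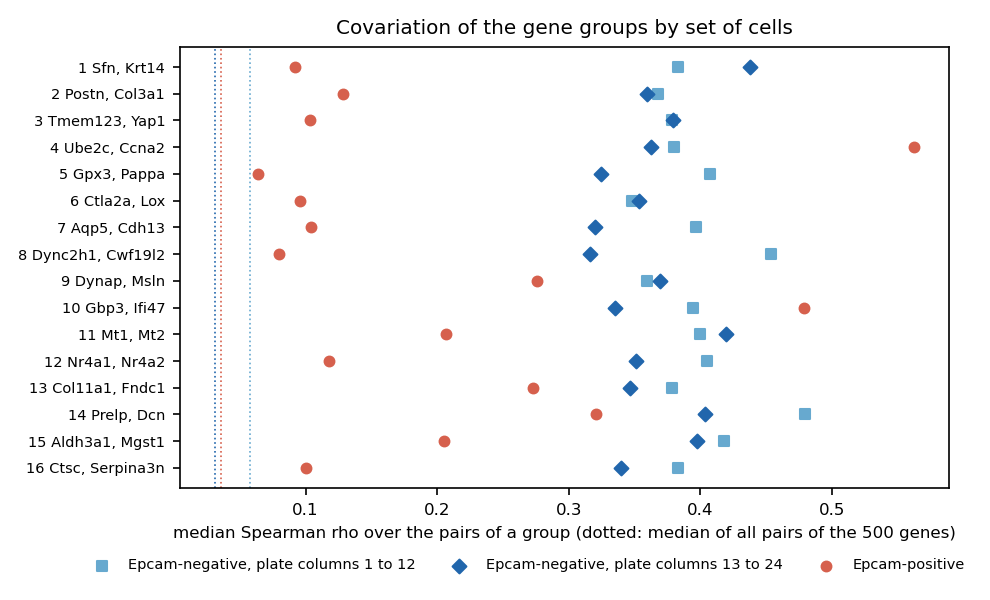
Median Spearman rho over the gene pairs of each of 16 covarying groups, named by their 2 leading genes, in Epcam-negative cells of plate columns 1 to 12 (squares) and 13 to 24 (diamonds) and in Epcam-positive cells (circles). Dotted lines are the medians of all pairs of the 500 genes. The Epcam-positive circles of groups 4 and 10 lie as high as or above the Epcam-negative symbols, and those of groups 1, 3, 5 and 8 lie near 0.1 or below.

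The largest group, of 38 genes, was the epithelial program (group 1), led by Sfn, Krt14, Dsc3, Dsp, Trp63 and Col17a1. Trp63 is the master regulator of stratified epithelia, Dsc3 and Dsp build desmosomes, Col17a1 anchors basal cells to the basement membrane, and Sfn is an epithelial 14-3-3 protein. Dsp ranged from 0 to 3022 CPM with a median of 2.38, Col17a1 from 0 to 3124 CPM with a median of 0, and Trp63 from 0 to 3031 CPM with a median of 0, with no read of Trp63 in 62.4% of cells. Krt14 and Sfn had a rho of 0.69, Krt5 and Col17a1 0.68, and Dsc3 and the adhesion gene Tenm2 0.66. Of the 38 genes, 37 were above their level here by 2-fold or more in Epcam-positive cells, as were 18% of the 500. The group kept a median rho of 0.38 without the 12 cells in which Epcam was present, so it did not rest on them. In Epcam-positive cells the median rho of these genes was 0.09.

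Matrix genes formed several groups rather than 1. Group 2 held 31 genes led by Postn, Col3a1, Aspn, Fmo2, Cst3 and Selenop. Postn, a matrix protein of wounds and tumour stroma, ranged from 2.77 to 42651 CPM with a median of 1246. It had a rho of 0.75 with Col3a1, against 0.04 in Epcam-positive cells. Postn was present in 17.7% and Col3a1 in 3.23% of Epcam-positive cells, so that value says little about their covariation there. Aspn, a small proteoglycan, ranged from 0 to 6629 CPM with a median of 98.6. The basement membrane collagen genes Col4a1 and Col4a2, which share a promoter region, had a rho of 0.84 in this group. Of the 31 genes, 30 were higher by a factor of 2 or more in Epcam-negative cells, as were 46.4% of the 500.

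The other matrix groups had their own leading genes. Group 5 was led by Gpx3, Pappa, Col12a1, Nox4 and Crispld2, and group 6 by Ctla2a, Lox, Mfap5, Col14a1, Dpt and Igf1. Lox, the enzyme that crosslinks collagen and elastin, ranged from 0 to 12044 CPM with a median of 328, and Igf1, a secreted growth factor, from 0 to 2105 CPM with a median of 1.8. Group 13 joined Col11a1, Fndc1, Ccn5, Cthrc1, Col8a1 and Fibin. Cthrc1, a secreted protein of collagen-producing cells, ranged from 0 to 2787 CPM with a median of 26.9. Group 14 joined the small proteoglycan genes Prelp, Dcn, Ogn and Fmod with Gsn and C1qtnf3. Dcn, which encodes decorin, stood at 3619.6 CPM (95% interval 3608 to 3631) and ranged from 2.16 to 34642 CPM with a median of 789. The scores of groups 2 and 5, each the mean z-score of log2(CPM + 1) over its genes, had a rho of 0.72, and those of groups 2 and 13, and of 5 and 13, 0.63 each. Over the pairs of groups 2, 5, 6, 13 and 14 the rho of the scores was 0.18 to 0.72, lowest for group 14 with groups 5 (0.18) and 6 (0.22).

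Group 3 held 20 genes led by Tmem123, Yap1, Cfap300, Birc2, Ankrd1 and Birc3, with the contractile genes Myl9, Tpm1 and Acta2 further down. Yap1 is the transcriptional co-activator of the Hippo pathway, Ankrd1 one of its standard target genes, and Birc2 and Birc3 are inhibitors of apoptosis. Yap1 ranged from 0 to 7982 CPM with a median of 238.8 and was at 109.2 CPM in Epcam-positive cells. Ankrd1 ranged from 0 to 2748 CPM with a median of 4.17, and Tmem123, a membrane protein, from 0 to 54635 CPM with a median of 715. Close pairs were Tmem123 and Yap1 (rho 0.83), Birc2 and Yap1 (0.82), Acta2 and Myl9 (0.70), and Ankrd1 and Yap1 (0.69). All 20 members were above their Epcam-positive level by 2-fold or more, as were 46.4% of the 500 correlated genes.

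Part of group 3 also shared a position in the genome. Of its 20 genes, 6 lie on chromosome 9, and 5 of these, Tmem123, Birc2, Birc3, Yap1 and Cfap300, are neighbours. Group 8 held 8 genes, and 7 of them, Alkbh8, Cwf19l2, Aasdhppt, Kbtbd3, Msantd4, Dync2h1 and Dcun1d5, lie on the same stretch. From Alkbh8 to Cfap300, at 3335140 to 8042823 on chromosome 9 of GRCm38, 19 genes were measured. Of these 16 (84.2%) were more variable, against 10.7% of all measured genes. The 3 that were not were Casp1, Casp4 and Casp12, the inflammatory caspase genes. The stretch also holds Mmp13, Mmp12, Mmp3 and Mmp10. The boundaries of this stretch were chosen after its values were seen. They were set by members of groups 3 and 8, which came from the 500 genes of highest excess. The 5 and 7 members in the stretch were thus more variable by that choice. The share of 84.2% therefore describes the stretch and supports nothing about it. Of its other measured genes, the Mmp genes were more variable and the caspase genes were not.

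Levels in the stretch were higher in Epcam-negative cells for most genes. Of the 19, 17 were at least 2-fold higher there, against 16.3% of all measured genes and 46.4% of the 500 correlated genes. None was at least 2-fold lower, against 6.15% and 18%. The members of groups 3 and 8 that bound the stretch came from those 500 genes. Dcun1d5, which acts in protein neddylation, was at 913 CPM against 429 CPM in Epcam-positive cells, and ranged from 0 to 18927 CPM with a median of 191.8. Msantd4 had a level with a 95% interval of 220.2 to 225.8 CPM, against 25.4 CPM there, and Birc2 was at 659.7 against 24.8 CPM. The median rho over all pairs of the 19 genes was 0.22, and that between the 5 members of group 3 and the 7 of group 8 was 0.27. The 3 proteases Mmp3, Mmp10 and Mmp13 had rho values of 0.43 to 0.54 with each other, a median of 0.20 with the group 8 members and a median of 0.08 with the group 3 members. On a grid of windows of this length along the genome, 280 windows held 10 or more measured genes. Their median share of more variable genes was 8.33% and the highest 68.8%. The grid included the stretch itself. The highest share belongs to a window that holds its genes from Casp1 to Cfap300, so it is not from another region. The next measured genes after Cfap300, Cep126 and Arhgap42, had excesses of 0.20 and 0.00. They were higher in Epcam-negative cells too, with log2 differences of 4.10 and 1.47, and Cep126 had a rho of 0.55 with Cfap300. Copy number was not measured in these data.

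Group 4 was the mitotic program, led by Ube2c, Ccna2, Birc5, Cdc20, Cdk1 and Smc2. Ube2c and Cdc20 drive protein destruction at the exit from mitosis, and Cdk1 with its partner Ccna2 drives entry. Cdk1 had no read in 51% of cells and reached 1232 CPM. Ube2c was present in 14.1% of cells and Cdk1 in 18.3%. The median rho was 0.38, against 0.56 in Epcam-positive cells. Given gene reads and the number of genes detected it was 0.28, and the group score had a rho of 0.58 with the number of genes detected. The part of depth in the covariation of this group was not tested further.

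Promoters of this group are shown because 2 motifs of mitotic genes, the CHR element (TTTGAA) and the CCAAT box, were more frequent in them than in all windows. The windows are the 250 bases before the RefSeq start of the gene on GRCm38.p6, and capitals mark matches on either strand. Ube2c lies on the plus strand (chr2:164769679-164769928) and Cdc20 on the minus strand (chr4:118437344-118437593).
Ube2c: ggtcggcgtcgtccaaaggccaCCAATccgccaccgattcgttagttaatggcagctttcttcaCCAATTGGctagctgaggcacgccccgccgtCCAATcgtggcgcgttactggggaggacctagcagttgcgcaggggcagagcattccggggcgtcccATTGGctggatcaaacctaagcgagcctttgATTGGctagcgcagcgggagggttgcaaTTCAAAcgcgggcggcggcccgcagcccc
Cdc20: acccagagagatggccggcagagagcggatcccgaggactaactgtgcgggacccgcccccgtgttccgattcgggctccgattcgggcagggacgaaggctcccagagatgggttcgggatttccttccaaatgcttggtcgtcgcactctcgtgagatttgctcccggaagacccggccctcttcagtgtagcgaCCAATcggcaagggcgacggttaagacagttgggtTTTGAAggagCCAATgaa
A CHR match was found in 6 of the 11 group 4 genes that had a window (54.5%, against 15.99% of all 32851 windows), namely Ube2c, Cdc20, Cdk1, Smc2, Top2a and Ccnb2. A CCAAT match was found in 8 of the 11 (72.7%, against 33.8%). The window of Birc5 held neither. Neither motif was particular to this group: the interferon-inducible group 10 had a CHR match in 4 of 6 windows (66.7%), and the matrix groups 5 and 6 had a CCAAT match in 66.7% and 60% of theirs.

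Group 10 was an interferon-inducible program of 7 genes: Gbp3, Gbp7 and Gbp2, which encode guanylate-binding proteins, and Ifi47, Irgm1, Iigp1 and Igtp, which encode immunity-related GTPases. These proteins attack the membranes around intracellular microbes. Gbp2 ranged from 0 to 1831 CPM with a median of 8.12, Irgm1 from 0 to 1373 CPM with a median of 0 and Iigp1 from 0 to 4874 CPM with a median of 0. Iigp1 had no read in 63.9% of cells. The group was also covarying in Epcam-positive cells, with a median rho of 0.48 against 0.41. Their promoters are shown because 5 of the 6 with a window held the core of the interferon-stimulated response element (ISRE core: TTTC, any 2 bases, then TTTC), the binding site of interferon response factors, against 2.98% of all windows. Gbp3 (chr3:142559794-142560043) lies on the plus strand and Irgm1 (chr11:48871421-48871670) on the minus strand, and capitals mark 2 overlapping matches in each, on either strand.
Gbp3: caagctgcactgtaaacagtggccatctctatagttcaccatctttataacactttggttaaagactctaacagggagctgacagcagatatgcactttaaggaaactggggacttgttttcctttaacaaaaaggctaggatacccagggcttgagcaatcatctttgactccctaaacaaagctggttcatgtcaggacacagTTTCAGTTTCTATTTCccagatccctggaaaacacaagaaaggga
Irgm1: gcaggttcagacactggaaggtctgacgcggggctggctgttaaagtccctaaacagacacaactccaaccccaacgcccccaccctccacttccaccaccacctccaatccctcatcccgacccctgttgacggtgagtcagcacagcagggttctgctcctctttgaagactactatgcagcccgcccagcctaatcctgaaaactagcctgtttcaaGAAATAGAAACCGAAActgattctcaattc
Gbp7, Gbp2 and Igtp held the motif as well, and the window of Ifi47 did not. These genes are closely related in sequence and partly clustered on chromosomes 3 and 11, so their reads and promoters are not independent of each other.

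Groups 11 and 12 were stress and early response genes. Group 11 was led by the metal-binding metallothionein genes Mt1 and Mt2 with Cdkn1a, Cebpd, Ndrg1 and Ets2. Mt1 and Mt2, which lie 6.42 kb apart on chromosome 8, had the highest rho of all pairs among the 500 genes, 0.92. Mt1 ranged from 3.37 to 19387 CPM with a median of 649.8 and Mt2 from 0 to 6317 CPM with a median of 206.5. Cdkn1a, a cell cycle inhibitor and p53 target, ranged from 0 to 4214 CPM with a median of 71.7. Group 12 joined the nuclear receptor genes Nr4a1, Nr4a2 and Nr4a3 with Bdkrb1, Gem and Gfpt2. Nr4a1 ranged from 0 to 9952 CPM with a median of 530.5. The scores of both groups had a rho of 0.56 with each other.

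The remaining groups were small. Group 7 held Aqp5, Cdh13, Itgbl1, Sncg, Spp1 and Scara5. Spp1, the secreted phosphoprotein osteopontin, ranged from 0 to 36425 CPM with a median of 38.3. Group 9 joined the simple-epithelium keratin genes Krt8 and Krt18 with Dynap, Msln, Eno3 and Wfdc2. Krt8 ranged from 0 to 1694 CPM with a median of 0 and Msln, which encodes mesothelin, from 0 to 4080.4 CPM with a median of 77.1. The score of group 9 had a rho of 0.57 with genes detected, and its median rho fell from 0.38 to 0.24 given depth. Group 15 included Aldh3a1, Mgst1, Icam1 and Enpp2, and group 16 Ctsc, Serpina3n, Fbln1 and Kif26b.

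Several groups were opposed. The epithelial group 1 and the matrix group 6 had scores with a rho of −0.63, and −0.60 without the cells in which Epcam was present. Split by plate position, it was −0.53 (columns 1 to 12) and −0.75 (columns 13 to 24). At the level of single genes, Ctla2a and the atypical cadherin gene Cdh13 had a rho of −0.57, Ctla2a and the desmosome-associated gene Perp −0.55, and Lox and Perp −0.52. The same pairs had rho values of 0.02, −0.04 and 0.06 in Epcam-positive cells. They were picked for their low rho in Epcam-negative cells, so weaker values in other cells follow from the choice alone. Ctla2a was present in only 16.1% of Epcam-positive cells. Whether the opposition is particular to Epcam-negative cells was not tested. Group 1 was less opposed to group 3 (−0.40), and it ran with group 7 (0.62).

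**Figure D4:**
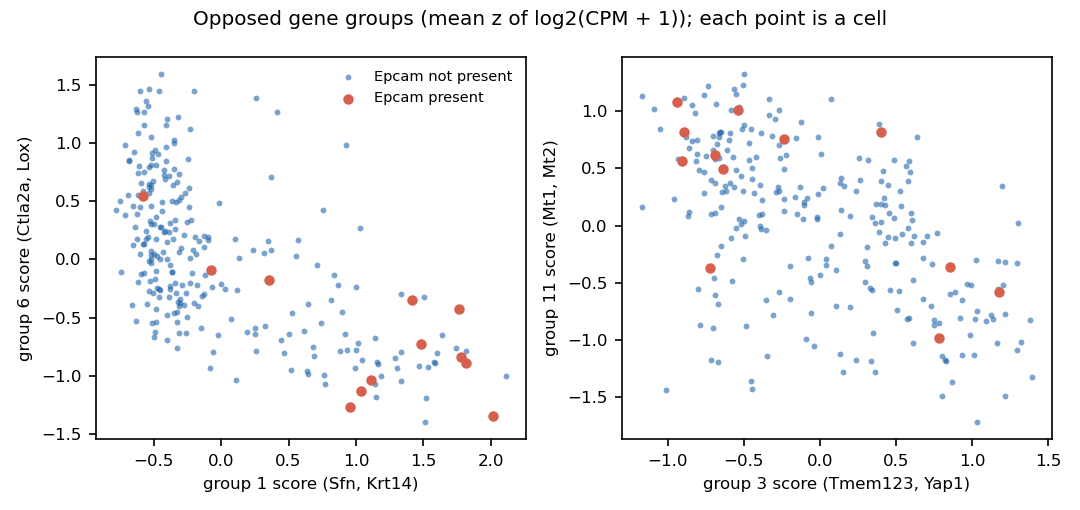
Scores of opposed gene groups in Epcam-negative cells, each the mean z-score of log2(CPM + 1) over the genes of a group; each point is a cell, and red points are the 12 cells in which Epcam was present. On the left, cells with high scores of the epithelial group 1 mostly have low scores of the matrix group 6 (rho −0.63). On the right, scores of group 3, led by Tmem123 and Yap1, fall as those of the metallothionein group 11 rise (rho −0.54).

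The Tmem123 and Yap1 group was opposed to the metallothionein group. Groups 3 and 11 had a rho of −0.54, with −0.46 and −0.58 in the 2 sets of plate columns. Acta2 and Mt1 had −0.55 against −0.04 in Epcam-positive cells, a pair also picked for its low rho in Epcam-negative cells. Group 3 was also opposed to groups 15 and 7 (−0.46 each). This opposition was not separate from that of groups 1 and 6: group 11 ran with group 1 (0.45) and group 3 with group 6 (0.48). The matrix group 2 was opposed to the keratin 8 and 18 group 9 (−0.51) and to the mitotic group 4 (−0.44), while groups 4 and 9 ran together (0.57). The mitochondrial share of reads moved with some of these groups: its rho was 0.39 with group 1 and 0.38 with group 9, and −0.38, −0.45, −0.47 and −0.41 with groups 2, 5, 6 and 13. With groups 3 and 11 it was −0.17 and 0.05. Its part in the oppositions was not tested.

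**Figure D5:**
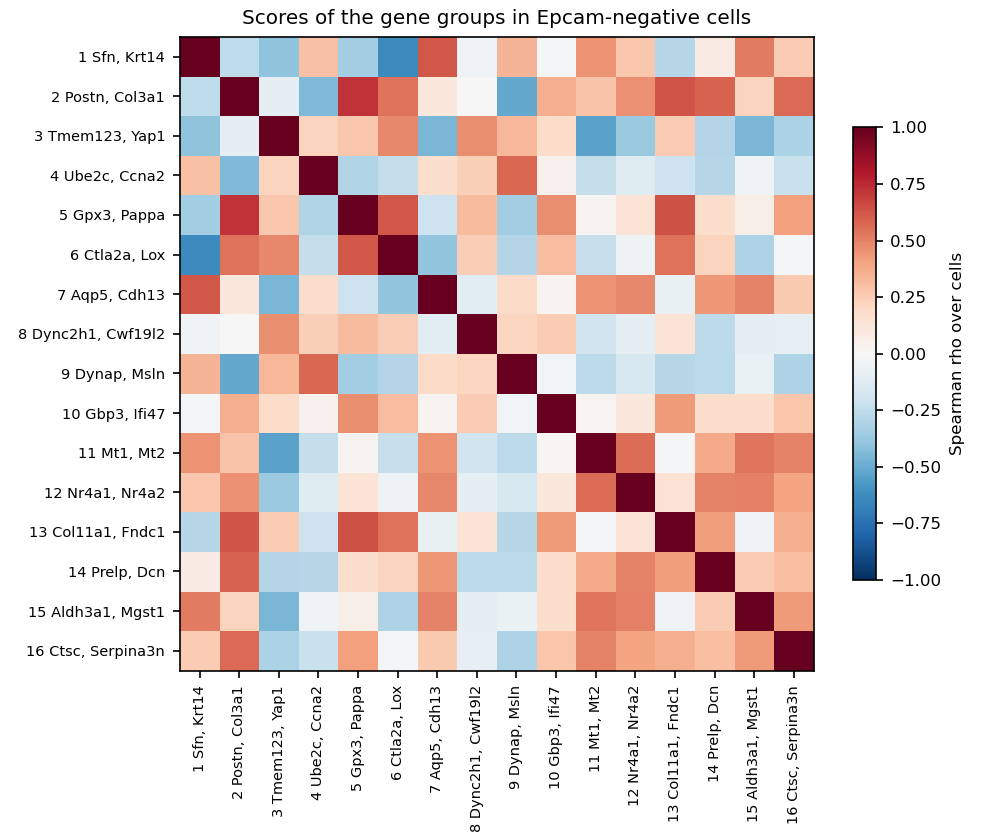
Spearman rho over Epcam-negative cells between the scores of the 16 gene groups, each named by its number and 2 leading genes; red is positive and blue negative. The matrix groups 2, 5, 6, 13 and 14 are positively related, and group 6 is opposed to groups 1 and 7, group 3 to groups 7, 11 and 15, and group 2 to groups 4 and 9.

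Neighbouring genes varied together more often than others across the whole set. Among the measured genes, 1.45% of 5160 pairs under 100 kb apart had a rho of at least 0.4, against 0.0930% of pairs on different chromosomes. Pairs of this kind included Col3a1 and Col5a2 (0.75), Krt14 and Krt16 (0.59), Cxcl1 and Cxcl2 (0.57) and 4 Serpina3 genes (0.77 to 0.90). Reads that map to near-identical relatives such as the Serpina3 or Hspa1 genes may be split between them by the counting, so those values are uncertain.

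Most of the variable genes could be measured in Epcam-positive cells as well. Of the 723 more variable genes, 505 were measured there, and 60% of these were more variable there too, against 13% of the 5803 genes measured in both. Gene groups differed in this. Mitotic and interferon genes covaried in both populations, with medians of 0.56 and 0.48 in Epcam-positive cells, while the groups led by Sfn, Postn, Tmem123, Gpx3, Ctla2a and Dync2h1 had medians of 0.06 to 0.13 there. Levels in these groups differed: the Sfn group was high in Epcam-positive cells, whereas Aspn of the Postn group was at 4.67 CPM there and Lox of the Ctla2a group at 5.56 CPM. The part of level in the low correlations was not tested.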

How the data were processed

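Single cells from skin tumours were sequenced by Smart-seq2 in 1 plate. The authors deposited unnormalised counts of reads, with a column per well and a row per gene or spike-in. The submitters' processing notes list cutadapt 1.13, STAR 2.5.2b, HTSeq 0.6.0 and the build GRCm38. Which annotation and strand setting were used is not given in the sources, which makes overlapping, antisense and near-identical genes uncertain. Of 310 wells labelled as single Epcam-negative cells, 263 were kept. Of 49585 gene identifiers, 49326 took a symbol and position from GENCODE vM21, matched without version, and 259 did not. The table also held 92 spike-ins.

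From these counts, CPM per cell and over summed cells, coefficients of variation, excess variation (running median over 301 genes) and Spearman correlations were computed with Python 3.11.15, numpy 2.4.6, pandas 2.3.3 and scipy 1.17.1. The step was checked on simulated data with known variable genes and groups. Reads carry no molecular identifiers, so intervals cover counting error only. Doublets were not called here, because the sort had a doublet gate. There is 1 sample per population, so no test was made. The members, lists, markers and rules were chosen with earlier results of these data known.

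Named genes are Epcam, Krt14 and the 6 markers, the 15 highest CPM per kb, the 20 highest excesses among genes present in at least 10% of cells, the 15 lowest excesses among genes of at least 100 CPM, up to 6 leading genes per covarying group and the 2 to 4 extremes of each list. Predicted, clone-named, microRNA, mitochondrial and ribosomal protein genes were left out of them. The clone-named transcript CT010467.1, at 31934 CPM, was left out in this way. Genes of the chromosome 9 stretch beyond this rule, and the neighbouring pairs, were named after their values were seen. Some genes that these rules name stand in the text by their group only, and some genes and part of the genotype are not reported here. Promoter windows came from RefSeq on GRCm38.p6, and 131 of the 188 group genes had one. The alternatives tried were other filters on cells, plate columns 1 to 12 or 13 to 24, other scalings, thinning, level floors of 5 and 50 CPM, and other correlation measures.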

Additional observations from a re-analysis of the deposited data

Results flagged for a closer look

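The well labelled as set up with 0 cells in the Epcam-positive part of the plate held 99241 gene reads over 8248 genes, with 7.66% spike-in reads. It is not used in any comparison. The corresponding well in the Epcam-negative part of the plate held 4018 gene reads with 76.2% spike-in reads. The median kept Epcam-negative cell held 414731 gene reads. The well was singled out because a well without a cell should hold few reads of genes, and the source of these reads was not tested.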

How the results depend on the processing

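Of 6778 genes measured at 20 CPM or above, 723 (10.7%) were called more variable and 394 (5.81%) less variable. A level floor of 5 CPM called 1242 more variable (11.98% of 10367 measured) and 749 less variable (7.22%), and a floor of 50 CPM called 424 more variable (11.5% of 3673) and 5.53% less variable, so that counts moved with the number of genes measured. Scaling by spike-in reads called 220 genes less variable (3.21%). Spike-in scaling kept 381 of the 723 more variable genes, and median-of-ratios scaling 625. Without any filter on cells (310 cells) 511 of them were called, and with the stricter filter, which kept 77.2% of the cells, 521. Of 4269 values of excess for single genes and lists under these alternatives, 3983 stayed on their side of the limit, although 2.86% of all values crossed 0 between the limits. A further 190 passed inside the limit and 87 outside it. Another 9 called values changed sign: Tpt1 (0.34 with median-of-ratios scaling), Rhoa (1.25 with no filter on cells), Tgfbr3 (−0.083 with spike-in scaling), Hsp90ab1 (0.094 with spike-in scaling), Ank2 (−0.23 in plate columns 1 to 12) and Hspa1b (−0.59 with the stricter filter, −0.48 in columns 13 to 24, −0.37 with spike-in scaling and −0.27 without its highest cell). The cause was not tested. The number of covarying groups was 16, and 10 with correlations given gene reads and genes detected. Median rho within groups moved by less than its spread over pairs in all but 5 of the values computed. The exceptions were group 8, with 0.45 in plate columns 1 to 12 and 0.49 by Pearson correlation of log2 values, group 10, with 0.34 in columns 13 to 24, and groups 4 and 9, with 0.28 and 0.24 given depth. For levels, 54 of 56 values stayed close. Epcam moved to 0.690 CPM without the cells in which it was present and to 14.7 CPM without its highest cell. No paired analysis was possible because the result comes from no test and the labels give replicate numbers to no cells.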

Other observations

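A single cell held much of the RNA of 1 gene on chromosome 12. Prpf39, a splicing factor gene, reached 11897 CPM in this cell against a median of 16.6, and 43.9% of its reads came from this cell. Without it the excess variation of Prpf39 was 2.4 in place of 4.59. Its neighbour Fkbp3, which encodes a prolyl isomerase, was at 3597 CPM in this cell, against a median of 108.02, and reached its highest level, 17346 CPM, in another cell. Of the other neighbours, Klhl28 and Togaram1 had their highest levels in this cell, 2005 and 1217 CPM, and Fancm was at 1065 CPM there.

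The same cell also held 5 chromosome 9 genes, Alkbh8, Cwf19l2, Aasdhppt, Kbtbd3 and Msantd4, at 30.0 to 56.3 times the mean of the others. A scan for runs of 4 or more adjacent measured genes, each at 8 times the mean of the other cells or above, found 12 runs in 11 cells, and 7 of these runs lay on this part of chromosome 9. Over all genes and cells 1.23% of values reached 8 times the mean. The scan and its limits were chosen after the values were seen.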
